A study of Mus musculus with 6 samples.

Results

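A set of 9 genes known for the suprachiasmatic nucleus, the hypothalamic clock above the optic chiasm, was followed in arcuate hypothalamus of control and POMCDicerKO mice. They were the peptide gene Vip and its receptor gene Vipr2, the prokineticin gene Prok2 and its receptor gene Prokr2, the transcription factor genes Six6, Lhx1, Rora and Rorb, and Zfhx3. Every probe set that the array annotation assigned to 1 of these genes alone was taken, which gave 28 probe sets for 9 genes out of 45037 probe sets and 18193 genes in all. POMCDicerKO mice lack the microRNA-processing enzyme Dicer in cells that express Pomc. The 6 arrays held RNA from 3 control samples and 3 POMCDicerKO samples, all from mice aged 2 weeks on a mixed C57Bl/6J, FVB/N and 129 background. No source used here gives the Cre driver, the alleles of the controls, whether animals were pooled or the time of day of dissection, although several of these genes cycle over the day.

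In the suprachiasmatic nucleus, neurons that release vasoactive intestinal peptide (encoded by Vip) keep the cells of the clock in step through the receptor VPAC2 (Vipr2). Prokineticin 2 (Prok2) is a rhythmic output signal of the nucleus that acts on cells bearing Prokr2. Six6 is needed for the nucleus to form and Lhx1 for its neurons to stay coupled. The nuclear receptors encoded by Rora and Rorb act on ROR elements of clock genes, and Zfhx3, a large zinc finger homeobox factor, sets the level of neuropeptide genes in the nucleus. None of these genes is exclusive to it: Rora and Rorb are widely expressed in the brain, and Zfhx3 is found in other hypothalamic neurons. In dissected tissue, therefore, fewer cells of a type and less RNA per cell cannot be told apart, nor can the nuclei that contributed the RNA.

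The start regions of Vip, Prok2 and Prokr2 are shown because the Vip and Prok2 promoters are textbook targets of cyclic AMP signalling and of the clock. RefSeq windows of 300 bases (build GRCm38.p6, from 250 bases before to 50 bases after the start) were found for all 9 genes, with 10 windows in all. Capitals mark the letters searched on both strands: TGACG, the core of a cyclic AMP response element, in Vip (chr10:5638968-5639267, plus strand), CACGTG, the E-box bound by CLOCK and BMAL1, in Prok2 (chr6:99726343-99726642, minus strand), and AGGTCA, the core bound by ROR and REV-ERB receptors, in Prokr2 (chr2:132385398-132385697, minus strand).
Vip: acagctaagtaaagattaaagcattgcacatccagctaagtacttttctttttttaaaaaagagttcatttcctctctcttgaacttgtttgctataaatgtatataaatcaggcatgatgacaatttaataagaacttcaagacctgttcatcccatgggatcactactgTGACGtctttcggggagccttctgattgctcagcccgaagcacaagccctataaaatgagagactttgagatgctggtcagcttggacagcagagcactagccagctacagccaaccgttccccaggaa
Prok2: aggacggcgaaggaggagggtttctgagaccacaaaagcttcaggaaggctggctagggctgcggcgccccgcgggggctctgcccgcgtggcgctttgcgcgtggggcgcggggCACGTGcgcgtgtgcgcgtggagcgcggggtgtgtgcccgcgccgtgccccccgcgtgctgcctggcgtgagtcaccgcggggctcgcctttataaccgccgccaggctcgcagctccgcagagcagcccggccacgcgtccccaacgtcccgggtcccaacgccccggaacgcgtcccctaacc
Prokr2: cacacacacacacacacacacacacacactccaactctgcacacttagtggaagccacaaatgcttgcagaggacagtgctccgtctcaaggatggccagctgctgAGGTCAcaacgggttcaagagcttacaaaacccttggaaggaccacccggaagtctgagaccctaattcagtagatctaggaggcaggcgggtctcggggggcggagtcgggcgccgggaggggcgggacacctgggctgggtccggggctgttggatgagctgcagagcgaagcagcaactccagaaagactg

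The TGACG of Vip began at position -79 from the start, the CACGTG of Prok2 at -135 and the AGGTCA of Prokr2 at -144. TGACG was found in 2 of the 10 windows, those of Vip and Lhx1, and in 20.8% of all 32851 windows. CACGTG was in 1 of 10 against 7.15% of all, and AGGTCA in 1 of 10 against 16.3%. TAATTA, the core that many homeodomains bind, was in 0 of 10 against 5.29%. These are matches of letters in a window, given as a description.

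The arrays were alike, with Pearson r across probe sets from 0.994 to 0.997. Dicer1, the targeted gene, did not separate the groups (log2 fold changes of 0.018 and 0.09 at its 2 probe sets). Whether these probe sets lie in the deleted part is not known here, so they do not check the labels. For Pomc the 3 POMCDicerKO arrays all lay below the 3 controls (log2 fold change -0.69, standard error 0.27, adjusted p of 1 by limma).

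All 9 genes read higher on average in POMCDicerKO at their highest probe set, but by little, and the spread among the controls was mostly wider than the difference. The count rested on single arrays: 4 of the 9 genes were higher without control 1 and 6 without control 3. It was 7 without POMCDicerKO array 2 and 8 without array 3, and stayed at 9 without control 2 or POMCDicerKO array 1. The median log2 fold change (POMCDicerKO minus control) over the 9 genes was 0.097, against -0.01 over all genes, of which 44.9% were higher. Over the 28 probe sets, 24 were higher and 4 lower, against 50.6% of all probe sets higher. None passed limma's threshold of 0.05 with Benjamini-Hochberg adjustment over all probe sets, where 0 of 45037 passed (0%), and the adjusted p was 1 for each of the 28. At an unadjusted p under 0.05 there were 3 of 28 (10.7%), 2 of Zfhx3 and 1 of Prokr2, against 1098 (2.44%) of all probe sets. The groups did not overlap at 4 of 28 (14.3%), 2 of Rora and 2 of Zfhx3, each with POMCDicerKO higher. Over all probe sets 6.36% did not overlap, 3.14% with POMCDicerKO higher. Zfhx3 was known beforehand for a small p in these data, and among the other 22 probe sets 1 (4.55%) had an unadjusted p under 0.05 and 2 (9.09%) did not overlap. Probe sets of 1 gene share their RNA and partly their target, and genes of 1 nucleus share a dissection, so these counts do not come from independent measurements.

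These counts moved with the arrays compared. Without control 1, 18 of 28 probe sets were higher, the median over genes was -0.00057, and 1 probe set had an unadjusted p under 0.05, against 4.61% of all probe sets. Without control 3, 17 were higher (60.7%), and without POMCDicerKO arrays 1, 2 and 3 in turn, 24, 20 and 23. Of all probe sets, 49.2% to 52.0% were higher with any single array left out. Without control 2, 27 were higher, the median was 0.23 and 8 had an unadjusted p under 0.05 (against 1.94% of all probe sets). The groups did not overlap at 15 without control 2 (53.6%, against 13.1% of all probe sets), but at 6 without control 1 (21.4% against 19.2%) and at 4 without control 3 (14.3% against 15.6%). Without POMCDicerKO array 1, 2 or 3 the counts were 6 (21.4% against 14.6%), 4 (14.3% against 15.2%) and 6 (21.4% against 17.4%). The share among the 28 was thus near or below that of all probe sets without control 1, control 3 or POMCDicerKO array 2. With controls 1 and 2 left out, control 3 was the only control, so the values compare the POMCDicerKO arrays with 1 sample. The median was then 0.28 and 22 did not overlap (78.6%, against 46% of all probe sets).

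**Figure D1:**
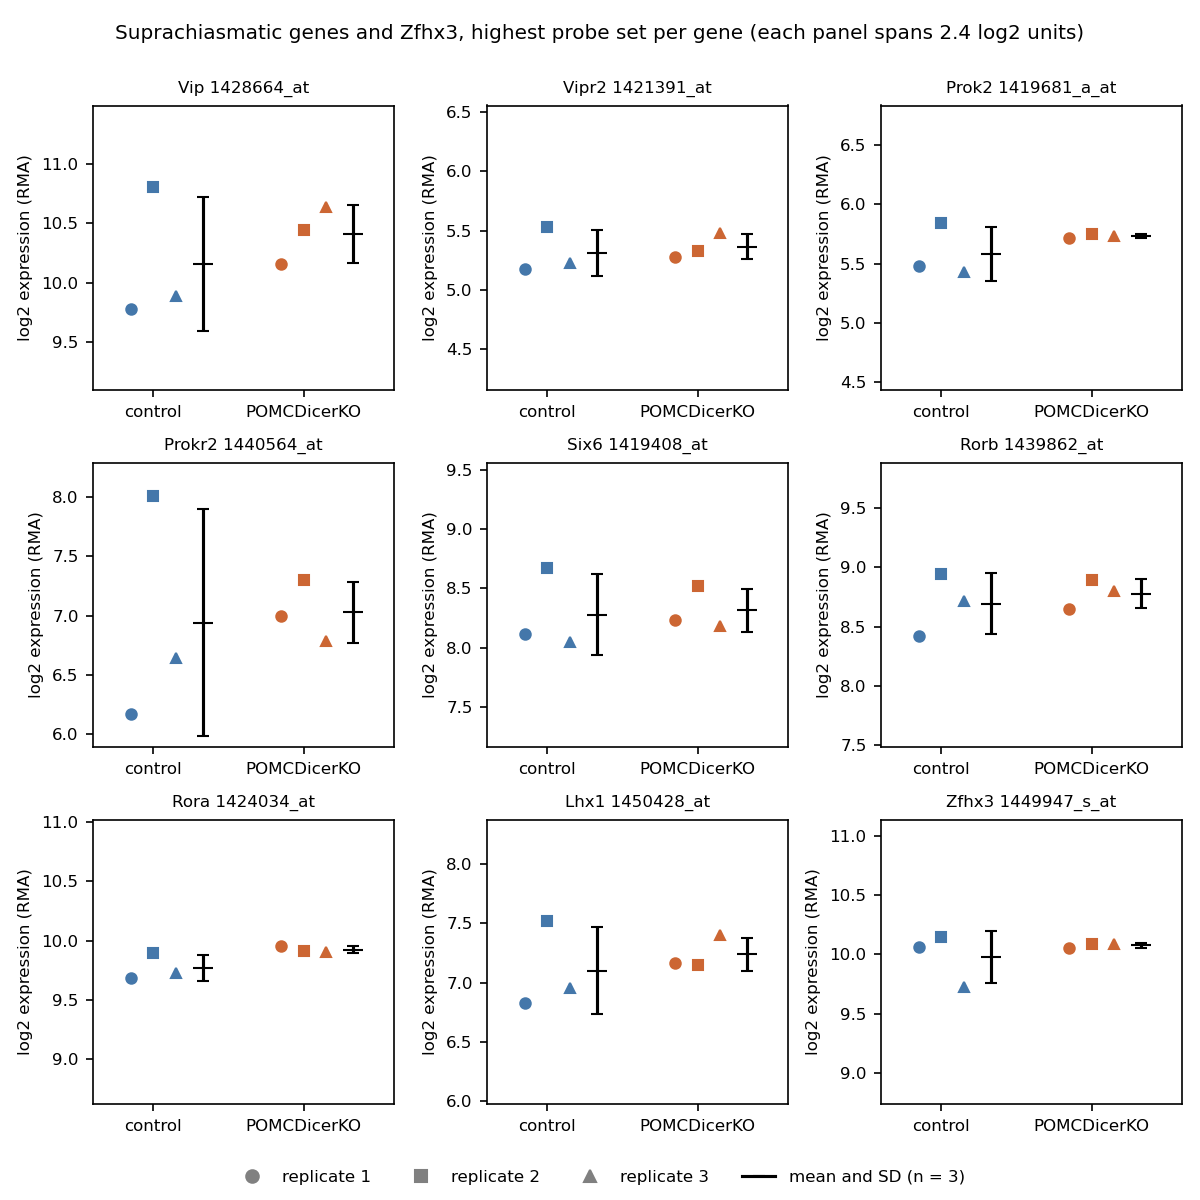
Log2 expression of the 9 genes at their highest probe set, 1 panel a gene, with control arrays in blue, POMCDicerKO arrays in orange, symbols for replicates, and the mean with SD (n = 3) in black. Control 2 is the highest of the 6 arrays in every panel but that of Rora, and the Prokr2 panel shows the widest spread.

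Vip was read by 1 probe set, 1428664_at, at 9.78, 10.81 and 9.89 on control arrays 1 to 3 and at 10.16, 10.45 and 10.64 on POMCDicerKO arrays 1 to 3. Control 2 was the highest of all 6 arrays and the other controls the lowest, so that the POMCDicerKO arrays lay between them. The means were 10.16 ± 0.57 (SD, n = 3) and 10.41 ± 0.24 (SD, n = 3), a log2 fold change of 0.26 (standard error 0.26), with a 95% interval from -0.36 to 0.87. The two-sided exact permutation p was 0.5, where 3 against 3 samples cannot go below 0.1. Without control 2 the log2 fold change was 0.58, and without control 1 it was 0.065. The range over the 6 arrays, 1.03, was wider than that of all but 1.84% of probe sets with a mean of at least 6, whose median range was 0.29.

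Vipr2, the receptor gene for the peptide, followed the same order of control arrays at a low signal. Probe set 1421391_at read 5.17, 5.53 and 5.23 in controls and 5.28, 5.33 and 5.48 in POMCDicerKO. Control 2 was again above every POMCDicerKO array, and the log2 fold change was 0.05 (standard error 0.11), -0.019 without control 1 and 0.16 without control 2. Array medians were 6.01 to 6.05, and a level this low carries little signal over background, which compresses differences.

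Prok2 had 3 probe sets, all with a mean under 6. At 1419681_a_at, the highest, controls read 5.48, 5.84 and 5.43, and POMCDicerKO arrays 5.72, 5.75 and 5.73. Control 2 again stood above every POMCDicerKO array and the other 2 controls below them, with a log2 fold change of 0.15 and a standard error of 0.11, and 0.28 without control 2. The remaining pair, 1426176_a_at and 1451952_at, designed on 1 shared sequence record, gave -0.083 and -0.012, with all values between 3.75 and 4.07 near the floor of the scale at 3.05.

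Prokr2 had 2 probe sets that were unlike each other. Probe set 1440564_at read 6.17, 8.01 and 6.64 in controls and 7.0, 7.30 and 6.78 in POMCDicerKO. Its range of 1.84 was the widest of the 28, exceeded by 0.273% of probe sets with a mean of at least 6, and its ends were control 1 and control 2. The log2 fold change was 0.085 (standard error 0.42), from -0.30 without control 1 to 0.62 without control 2.

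The other Prokr2 probe set, 1437695_at, carried the largest log2 fold change of the 28. Controls read 6.44, 6.83 and 6.03, and POMCDicerKO arrays 6.79, 7.0 and 6.93, so that only control 2 reached the POMCDicerKO values, just above array 1. The means were 6.43 ± 0.40 (SD, n = 3) and 6.91 ± 0.11 (SD, n = 3). The log2 fold change of 0.48 (1.39-fold) had a standard error of 0.18 and a 95% interval from 0.056 to 0.90, with an exact permutation p of 0.2 and an adjusted p of 1 by limma. It was 0.28 without control 3 and 0.68 without control 2.

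Six6, a homeobox gene of the eye and ventral hypothalamus, had close group means. Probe set 1419408_at read 8.12, 8.67 and 8.05 in controls and 8.23, 8.52 and 8.19 in POMCDicerKO. The control range enclosed that of POMCDicerKO, and the log2 fold change was 0.034 (standard error 0.17), with a 95% interval from -0.36 to 0.43. It was -0.080 without control 3 and 0.23 without control 2.

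Lhx1, a LIM homeobox gene, had 2 probe sets on 1 sequence record, both higher on average by less than the control spread. At 1450428_at controls read 6.83, 7.52 and 6.96, and POMCDicerKO arrays 7.17, 7.15 and 7.40. Control 2 was again the highest array, and the log2 fold change of 0.14 (standard error 0.17) was -0.00057 without control 1 and 0.34 without control 2. The second, 1421951_at, gave 0.084 with a standard error of 0.077.

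Rorb was read by 3 probe sets, each from a different sequence record, with log2 fold changes between 0.084 and 0.12. At 1439862_at controls read 8.42, 8.94 and 8.72 and POMCDicerKO arrays 8.65, 8.89 and 8.80, all inside the control range. Probe set 1455799_at did not repeat this order: controls read 7.54, 7.02 and 6.56, and POMCDicerKO arrays 7.36, 7.18 and 6.92, so that control 1 was the highest array. In both the groups overlapped, and at 1455799_at the log2 fold change of 0.11 was -0.13 without control 3 and 0.36 without control 1.

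Rora, the most densely covered gene with 9 probe sets from 7 sequence records, separated the groups at its 2 brightest, by a small margin. Of the 9, 8 were higher on average and 1 lower, and the log2 fold changes ran from -0.028 to 0.16. At 1424034_at controls read 9.68, 9.90 and 9.73 and POMCDicerKO arrays 9.96, 9.92 and 9.90, so that the lowest POMCDicerKO array lay 0.0077 above control 2.

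At 1455165_at, from another sequence record, controls read 9.24, 9.29 and 9.19 and POMCDicerKO arrays 9.48, 9.37 and 9.31. Here too all 3 POMCDicerKO arrays were above all 3 controls. The log2 fold changes were 0.16 with a standard error of 0.075 and 0.14 with a standard error of 0.071, both with an exact permutation p of 0.1 and an adjusted p of 1 by limma, and both 95% intervals included 0 (from -0.018 to 0.33, and from -0.025 to 0.30). With single arrays left out they stayed between 0.11 and 0.22, and between 0.093 and 0.18.

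The other 7 Rora probe sets overlapped between the groups. Among them 1420583_a_at, 1436326_at and 1436325_at, with means between 7.17 and 8.13, gave 0.15, 0.10 and 0.16, with standard errors of 0.14, 0.16 and 0.16. The dimmest 4, all with means under 6, were 1458145_at (0.067), 1458129_at (0.11), 1441085_at (-0.028) and 1424035_at (0.013). The last shares its sequence record with 1424034_at.

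**Figure D2:**
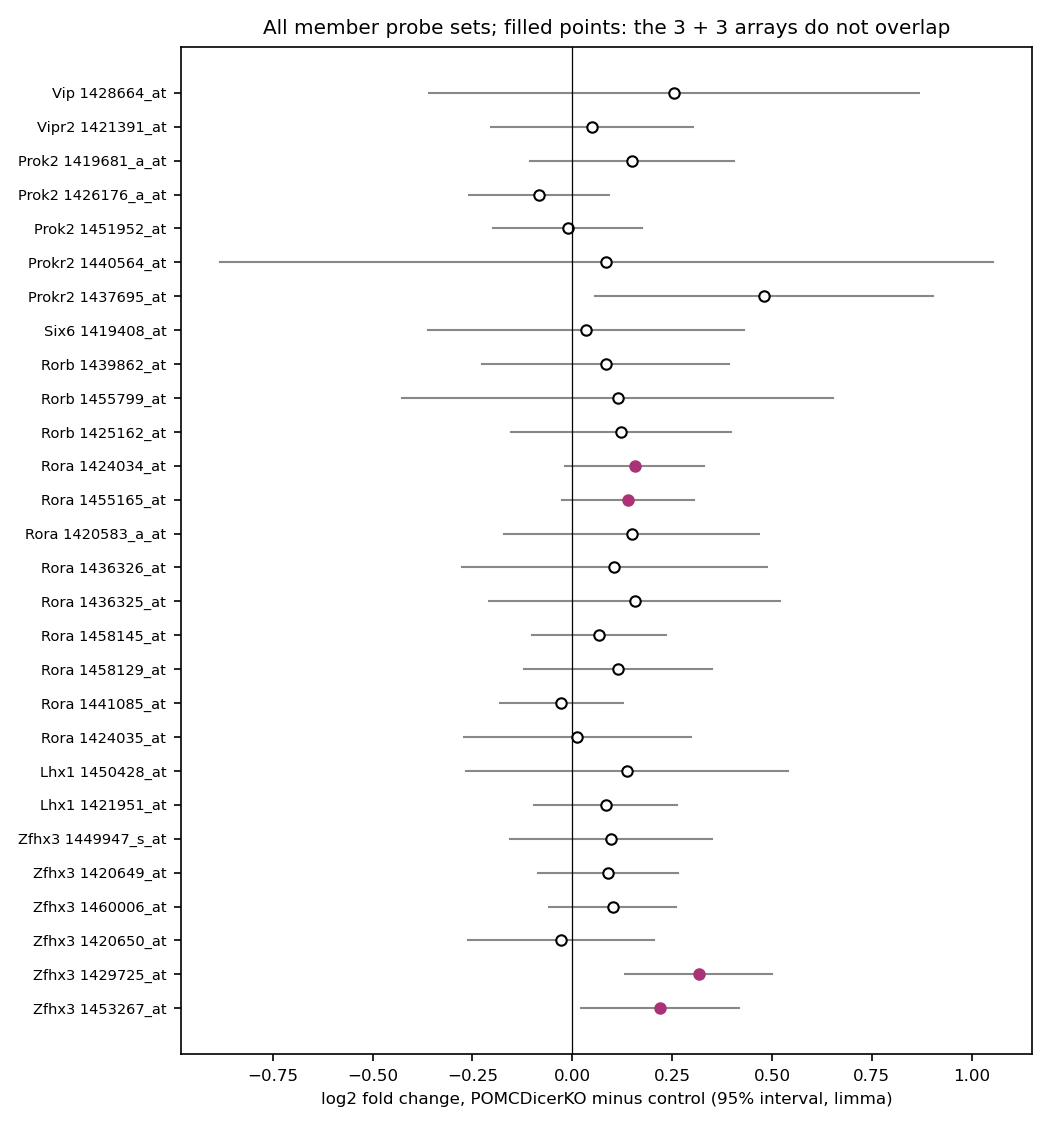
Log2 fold change (POMCDicerKO minus control) of the 28 probe sets with 95% intervals from limma, filled where the 3 POMCDicerKO arrays do not overlap the 3 controls. Most points lie right of 0 with intervals that include it, and the intervals of Prokr2 1437695_at, Zfhx3 1429725_at and Zfhx3 1453267_at lie above 0 before adjustment for the 45037 probe sets.

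Zfhx3 had 6 probe sets from 3 sequence records, and the groups separated only at the pair designed on 1 of these records. The gene was already known from earlier results of these data for the small unadjusted p of 1429725_at, so that p is a description and no independent support. That probe set read 6.18, 6.08 and 5.99 in controls and 6.37, 6.49 and 6.33 in POMCDicerKO. All 3 POMCDicerKO arrays were above all 3 controls, with a gap of 0.15 between the nearest arrays. The means were 6.08 ± 0.098 (SD, n = 3) and 6.40 ± 0.085 (SD, n = 3), a log2 fold change of 0.32 (1.24-fold) with a standard error of 0.079 and a 95% interval from 0.13 to 0.50. The unadjusted p of limma was 0.0043 and the adjusted p was 1. The exact permutation p was 0.1, the lowest that 3 against 3 samples can give. Its mean over the 6 arrays, 6.24, was close to the array medians of 6.01 to 6.05. With single arrays left out the log2 fold change stayed between 0.27 and 0.37.

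Probe set 1453267_at, designed on the same sequence record, also separated the groups, at a low signal. It read 4.51, 4.66 and 4.77 in controls and 4.84, 4.82 and 4.94 in POMCDicerKO, and the gap between control 3 and POMCDicerKO array 2 was 0.041. The log2 fold change was 0.22 (standard error 0.085, unadjusted p = 0.0333 and adjusted p of 1 by limma). It was 0.15 without control 1 and 0.094 with control 3 as the only control, where 1429725_at was 0.41.

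The 3 probe sets designed on another sequence record of Zfhx3 showed no such separation. The brightest of all, 1449947_s_at, read 10.06, 10.14 and 9.73 in controls and 10.06, 10.08 and 10.08 in POMCDicerKO, so that control 3 alone was low. Its log2 fold change was 0.097 (standard error 0.11), and -0.028 without control 3. Probe set 1420649_at read 9.67, 9.57 and 9.45 in controls and 9.62, 9.66 and 9.68 in POMCDicerKO, again with the lowest value in control 3, a log2 fold change of 0.089 and a standard error of 0.076. At 1420650_at controls read 7.25, 7.49 and 7.11 and POMCDicerKO arrays 7.22, 7.29 and 7.25, inside the control range, with a log2 fold change of -0.029 and a standard error of 0.10.

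The remaining record, read by 1460006_at, gave overlapping groups too. Controls read 8.37, 8.34 and 8.28 and POMCDicerKO arrays 8.42, 8.51 and 8.36, where array 3 overlapped control 1. The log2 fold change was 0.10 (standard error 0.068), with an exact permutation p of 0.2. The 6 log2 fold changes averaged 0.13. Whether the probe sets differed from each other in their group difference was not tested, and the exon or transcript end that each one reads was not analysed here.

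**Figure D3:**
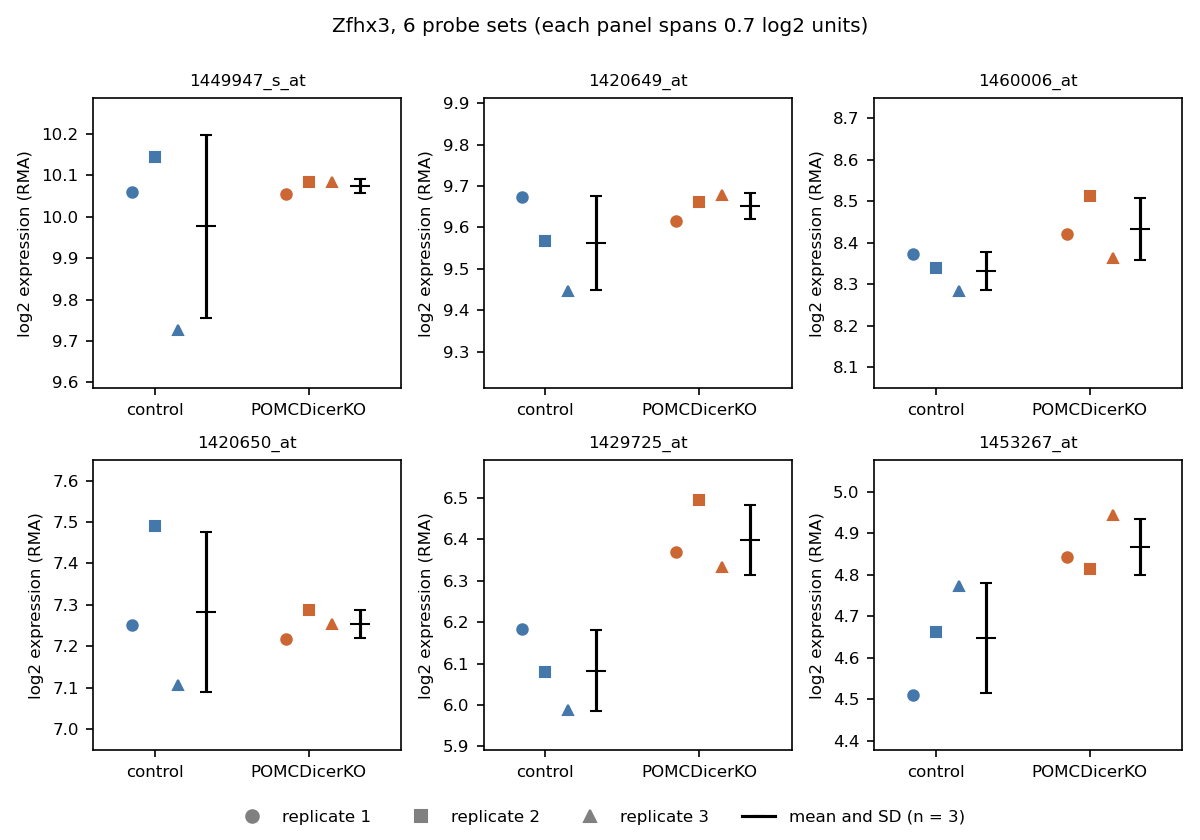
Log2 expression of Zfhx3 at its 6 probe sets on each array (controls in blue, POMCDicerKO in orange, mean with SD, n = 3, in black). The groups separate at 1429725_at and 1453267_at, which share a sequence record, and overlap at the other 4.

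Control 2 was the array on which the highest probe sets of these genes stood out. At that probe set it was the highest of the 6 arrays for 8 of the 9 genes, all but Rora, against 25.4% of all genes. Over the 28 probe sets it was highest at 12 (42.9%), against 20.7% of all probe sets. Among the further probe sets, Prok2 1451952_at, Rora 1420583_a_at and 1441085_at and Zfhx3 1420650_at were highest on control 2. The rest, among them Prokr2 1437695_at, Lhx1 1421951_at and Rorb 1455799_at and 1425162_at, were highest on another array. Averaged over the 9 genes, the controls stood at -0.23, 0.39 and -0.16 from the control mean and the POMCDicerKO arrays at 0.044, 0.17 and 0.13. The controls were also the more variable group. Their SD was the larger at the highest probe set of all 9 genes, against 47.7% of all genes. It was the larger at 22 of the 28 probe sets (78.6%), against 50.3% of all probe sets.

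Averages over some marker lists of neighbouring cells put control 2 at an end as well. Over 8 measured arcuate neuron genes control 2 stood at 0.30 from the control mean and the other controls at -0.21 and -0.084. POMCDicerKO arrays stood at -0.66, -0.055 and -0.26. Control 2 was thus the highest array for the arcuate average, though Slc6a3 was highest on control 1 and Isl1 on control 3. All 8 genes were lower on average in POMCDicerKO, with a median of -0.28, and 2 (Pomc and Slc6a3) had an unadjusted p under 0.05. Over 5 lateral hypothalamus genes control 2 was the lowest array on average at -0.67, against 0.22 and 0.45 in the other controls. POMCDicerKO array 1 was the highest at 0.85 (4 genes higher and 1 lower in POMCDicerKO, median 0.057). Hcrt, Pmch and Npvf had these same ends. Trhr was lowest on POMCDicerKO array 3, and Lhx9 was lowest on control 3 and highest on control 1. Paraventricular and supraoptic genes, 6 in number, averaged highest on control 1 at 0.57 and lowest on control 2 at -0.34 (3 higher and 3 lower). Crh, at 4.20 on control 2 against 6.86 and 6.65 on controls 1 and 3, weighed most on that low mean. Trh and Sim1 were also lowest on control 2, but Avp was lowest on control 3, and Oxt and Otp on POMCDicerKO array 1. The part of these neighbouring cells in the values of the suprachiasmatic genes was not tested.

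Thalamic genes, of interest because the thalamus expresses Rora and Rorb, lay between -0.13 and 0.12 on all 6 arrays (6 genes, 3 higher and 3 lower), and general neuronal genes between -0.087, on control 2, and 0.11 (4 higher and 2 lower). Ventromedial genes lay between -0.074 and 0.083 (3 higher and 2 lower). Of these, 1 had an unadjusted p under 0.05, Vgll2 at -0.21 (unadjusted p of 0.046 by limma), where the groups did not overlap. Myelin genes were higher on average in POMCDicerKO for all 9 measured (median 0.47, 6 with an unadjusted p under 0.05), with POMCDicerKO array 1 at 0.78 and the others at 0.12 and 0.41. Controls stood at 0.13, -0.15 and 0.022 for myelin, so that control 2 was the lowest array there too. Meningeal genes were lower for all 10 (median -0.61, 6 with an unadjusted p under 0.05) and stood at 0.45 and 0.47 on controls 1 and 2, the latter the highest array, and at -0.92 on control 3, with POMCDicerKO arrays between -1.32 and -0.70. Over all probe sets 2.44% had an unadjusted p under 0.05 by limma, and over all genes 44.9% were higher on average. No gene of any marker list passed the adjusted threshold. The part of these cells in the results on the 9 genes was not tested.

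**Figure D4:**
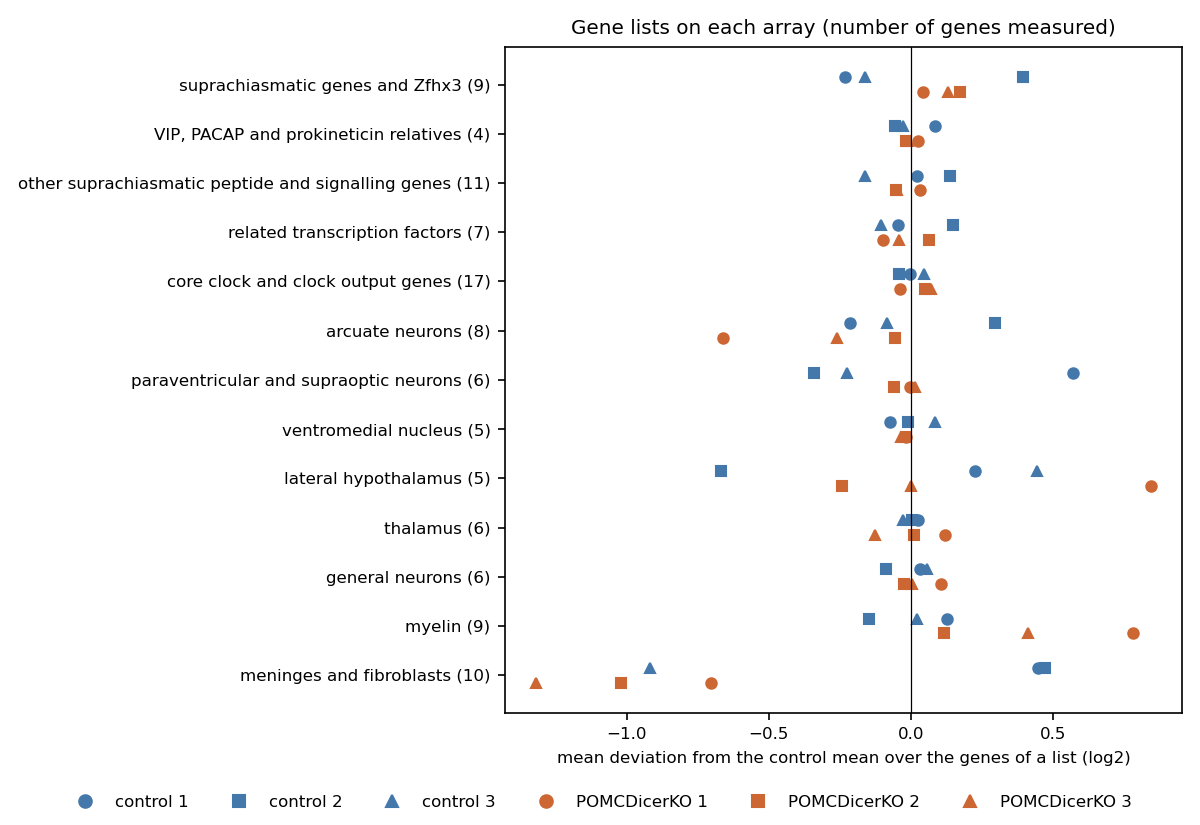
Mean deviation from the control mean, in log2 units, over the measured genes of each list (number in brackets), with a point for each array (controls in blue, POMCDicerKO in orange). For the 9 suprachiasmatic genes control 2 stands at 0.39 and the other controls at the low end, with the POMCDicerKO arrays between 0.044 and 0.17.

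Relatives of the peptide and receptor genes showed small differences. Adcyap1, which encodes the related peptide PACAP, was at 0.0046 and its receptor gene Adcyap1r1 at 0.0035, with standard errors of 0.088 and 0.061. Vipr1, the other VIP receptor gene, was at -0.063 and Prokr1, the other prokineticin receptor gene, at 0.051, both at low levels with means under 5. The list had a median of 0.004 over 4 genes, and 0 of them passed the test or had an unadjusted p under 0.05. Prok1 was not analysed here.

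Among 11 other peptide and signalling genes of the suprachiasmatic nucleus, 6 were higher and 5 lower, with a median of 0.007, and 0 passed or had an unadjusted p under 0.05. Cck, the cholecystokinin precursor gene, gave the largest difference at -0.59 with a standard error of 0.26. Rgs16, a regulator of G protein signalling that cycles in the nucleus, was at 0.23 (standard error 0.20) and, like Vip, was highest on control 2. So were Gpr176, Rasd1, Grpr and Nmur2, and the others of the list were highest elsewhere. Averaged over the list, controls 1 to 3 stood at 0.023, 0.14 and -0.16 from the control mean. POMCDicerKO arrays 1 to 3 stood at 0.033, -0.053 and -0.050. Grp, the gastrin-releasing peptide gene of light-receiving cells, was at 0.12, and Gpr176, an orphan receptor gene of clock neurons, at 0.095. Avp, the vasopressin gene, also strongly expressed by paraventricular and supraoptic neurons, was at -0.091 (standard error 0.40.) Calb2, Syt10 and Rasd1 were at 0.092, 0.057 and 0.0068, and Avpr1a, Nmur2 and Grpr at -0.038, -0.037 and -0.10.

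Related transcription factor genes gave a median of 0.013 over 7 genes, 4 higher and 3 lower, with 0 past the test or at an unadjusted p under 0.05. Six3, the closest relative of Six6, was at 0.013, and Zfhx4 and Zfhx2, relatives of Zfhx3, were at 0.046 and -0.0013. Vax1, of the optic chiasm region, was at 0.16, Lhx5 at 0.035, Rax at -0.087 and Lhx2 at -0.34 with a standard error of 0.22. Lhx2, Rax, Six3 and Zfhx2 were highest on control 2, and the list stood at 0.15 there against -0.044 and -0.10 in the other controls.

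Core clock and clock output genes, which ROR receptors and the E-box loop act on, differed little on average. Of 17 genes, 12 were higher and 5 lower, with a median of 0.017 and a span from -0.074 to 0.17, and 0 passed or had an unadjusted p under 0.05. Cry1, a clock repressor gene, was at 0.16 (standard error 0.12), and Nfil3, a repressor of clock output, at 0.17 with a standard error of 0.18. Per2 was at 0.08 and Per3 at -0.052. Averaged over the list, all 6 arrays lay between -0.041 and 0.072 from the control mean.

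The genes most like Vip in their course over the 6 arrays were sought among 19685 named probe sets with a mean of at least 6, by the root mean square difference of deviations from each gene's own mean. They were Adi1 (0.13), Ccdc153 (0.16), Lhx1 (0.16), A930005H10Rik (0.16) and Arcn1 (0.17), so that Lhx1, itself among the 9, was the third nearest. Each read highest or second highest on control 2. For Zfhx3 at 1449947_s_at, whose course was nearly flat but for control 3, the nearest were Iglon5 (0.033), Fancc (0.034), Dag1 (0.042), Tmem108 (0.043) and Tyrobp (0.044). With 6 arrays such likeness is a description of these arrays only.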

How the data were processed

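Total RNA of 6 arcuate dissections was hybridised to Affymetrix Mouse Genome 430 2.0 arrays. The authors deposited a log2 value for each probe set on each array, computed by RMA with the affy package per the submitters' processing notes, versions unstated. RMA equalises arrays by quantiles, so a shift shared by most transcripts is lost. The precision is limited by the number of arrays. Groups came from the sample titles. The design text calls the samples independent but does not say what 1 sample held, so p-values measure the spread between these samples.

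Of 45101 rows, 64 control probe sets were left out and 0 sample columns were unused. Of the rest, 34945 had 1 gene symbol, 932 several, and 9160 are unnamed here. Symbols were updated by Entrez identifier (34741 found in RefSeq, GRCm38.p6), and promoter windows came from RefSeq on that build. Limma 3.58.1 (lmFit, eBayes) in R 4.3.3 was fitted to all 45037 probe sets, adjusted by Benjamini-Hochberg, and tested on simulated data. Where a gene had several probe sets, lists used the one brightest on average over the 6 arrays. The genes named were all probe sets of the 9 genes, all measured genes of the 3 lists of relatives, up to 4 of each other list by smallest unadjusted p, and the 5 nearest in course to Vip and to Zfhx3. Crh and Trhr were named outside this rule, for the arrays on which they were lowest. The members and lists were chosen with earlier results of these data known. Alternatives were other scalings, a filter at a mean of 6, other priors, array weights, a replicate block, averaging a gene's probe sets, and arrays left out.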

Additional observations from a re-analysis of the deposited data

How the results depend on the processing

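No probe set of the 28 passed the adjusted threshold under any alternative (smallest adjusted p = 0.829, for Prokr2 1437695_at by limma with controls 1 and 2 left out), and over all probe sets 1 passed with a trended and robust prior, 1 with controls 1 and 2 left out, and 0 to 2 with single arrays left out. With controls 1 and 2 left out the control arm held 1 sample, assumed to vary like the POMCDicerKO arrays, which alone gave the spread. Of 28 log2 fold changes, 14 kept their sign under every alternative that could alter them, and centring the arrays or a further quantile normalisation turned 0. A prior, moderation, the replicate block or a minimum mean leaves a log2 fold change as it is. Deviations of same-numbered arrays correlated at 0.13, 0.079 and 0.12, and those of differently numbered arrays of the 2 groups at -0.11 to -0.018. Each array thus correlated best with its own number. Whether replicate numbers pair the arrays cannot be told from these values, and the main fit did not pair them. With the replicate block 0 probe sets passed, 3 of the 28 had an unadjusted p under 0.05 and the median was 0.097. The count of 3 (2.44% of all probe sets) was 1 without moderation (2.66%), 5 with array weights (2.83%), 7 with controls 1 and 2 left out (4.15%) and 1 to 8 with single arrays left out (4.61% and 1.94%). The count of 4 without overlap (6.36% of all probe sets) was 22 with controls 1 and 2 left out (46% of all probe sets). With single arrays left out it was 4 to 15, where 13.1% to 19.2% of all probe sets did not overlap. These counts were added after the data were seen. The median over genes was 0.090 to 0.12 under the scaling, weighting and probe set alternatives, and -0.00057 to 0.23 with single arrays left out.

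Signs turned as follows with single arrays left out: Vipr2 -0.019 to 0.16, Prok2 1451952_at -0.070 to 0.059, Prokr2 1440564_at -0.30 to 0.62, Six6 -0.080 to 0.23, Rorb 1439862_at -0.051 to 0.21, 1455799_at -0.13 to 0.36 and 1425162_at -0.013 to 0.20, Rora 1420583_a_at -0.0062 to 0.29, 1436326_at -0.043 to 0.24, 1441085_at -0.058 to 0.010 and 1424035_at -0.098 to 0.15, Lhx1 1450428_at -0.00057 to 0.34, Zfhx3 1449947_s_at -0.028 to 0.18 and 1420650_at -0.12 to 0.074. With array weights Prok2 1451952_at was 0.0057 and Rora 1424035_at -0.031. With controls 1 and 2 left out Prok2 1451952_at was 0.014 and Zfhx3 1420650_at 0.15. Leaving arrays out uses fewer samples. The cause was not otherwise tested.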
